A study of Mus musculus with 2 samples.

Results

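The Slc25 genes encode the mitochondrial carrier family, and 44 of them had a probe set assigned to a single gene, of 18194 such genes on the array. Members were taken by symbol, Slc25a followed by a digit, and each gene was represented by the probe set that was brightest on average over both arrays. Of the 44 carriers, 37 were measured, meaning that at least 1 array reached a floor of 3.85 on the log2 scale, the median value over all probe sets and both arrays. By the same floor 11404 of all genes were measured. The other 7 carriers lay between 1.62 and 3.31 on both arrays.

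The samples were CD8+ and CD8- conventional dendritic cells (DCs), the antigen-presenting cells of the spleen, from C57BL/6 mice. All mice carried Flt3 ligand-producing B16 cells, a melanoma line of mouse origin. Flt3 ligand is a growth factor for DCs. Between 10 and 12 days after injection, spleen DCs were enriched on magnetic columns and sorted for CD11c without CD3 or B220. CD8α+ and CD8α- cells were collected separately, and both populations are labelled as unstimulated. Each population gave 1 Affymetrix array, so no value has a replicate, no test was possible, and genes are described by the size of the difference, CD8+ minus CD8-. A difference here cannot be told apart from variation between mice, sorts or hybridisations, and in bulk RNA fewer cells of a type cannot be told apart from less RNA per cell. How many mice were pooled is not given in the sources used here. The sorted populations matched their labels by the direction of the subset markers. All 7 CD8+ DC markers on the array, among them Cd8a (11.29 in CD8+ and 5.15 in CD8- DCs), were higher in CD8+ DCs. All 7 CD8- DC markers, among them Sirpa (4.49 and 8.69), were lower there. All 7 CD8+ DC markers were also above the floor in CD8- DCs, among them Xcr1 (10.88 and 8.45). Genes used as markers of other cells differed in both directions. Cd79b (3.28 and 6.59) and Tcf4 (5.47 and 7.55) were lower in CD8+ DCs, and Ms4a1 (5.74 and 4.99) and Ccr9 (8.03 and 5.94) were higher. The share of other cells was not tested.

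Mitochondrial carriers sit in the inner mitochondrial membrane, which is otherwise closed to most metabolites. Each moves particular solutes between cytosol and matrix, such as ADP and ATP, phosphate, citrate, amino acids, acylcarnitines, cofactors or iron. They thereby tie oxidative metabolism to the synthesis of lipids, nucleotides, heme and glutathione in the rest of the cell. A few members act elsewhere, such as Slc25a17 in the peroxisome and Slc25a46 in the outer mitochondrial membrane.

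Most carrier transcripts differed little between the DC subsets, as did most measured genes. A member on each side passed 2-fold. Slc25a20, the carnitine-acylcarnitine carrier that brings fatty acids into the matrix for oxidation, was higher in CD8+ DCs. Slc25a37, mitoferrin 1, which imports iron for heme and iron-sulfur clusters, was lower in CD8+ DCs. Thus 1 of the 37 measured carriers (2.70%) exceeded 2-fold in favour of CD8+ DCs, against 3.55% of all measured genes, and 1 (2.70%) in favour of CD8- DCs, against 5.97%. At 1.5-fold, 6 carriers (16.2%) were higher, against 8.49% of all measured genes, and 2 (5.41%) were lower, against 11.5%. The 6 include Slc25a53, whose probe sets disagree in direction, and with the mean of all probe sets of a gene 4 were higher, without Slc25a15 (0.42) and Slc25a53 (-0.067). The other 29 of the 37 carriers stayed within 1.5-fold, as did 9122 of the 11404 measured genes. The median absolute difference was 0.29 over the carriers and 0.25 over all measured genes. At 4-fold no carrier was higher in CD8+ DCs, against 0.859% of all measured genes, and Slc25a37 alone was lower, against 2.1%. Slc25a37 lay at that threshold, and with a lowess trend on signal subtracted it was at -1.998, just short of it.

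Small differences were more often in favour of CD8+ DCs. Of the 37 measured carriers, 26 (70.3%) were higher in CD8+ DCs, 10 were lower and 1 was equal, whereas 52.6% of all measured genes were higher. The median log2 difference was 0.12 over the carriers, with quartiles of -0.04 and 0.39, and 0.03 over all measured genes, with quartiles of -0.24 and 0.26. Within this pair of arrays, probe sets of 1 gene differed with a pooled SD of 0.30 in their log2 difference. It was taken over 5183 genes with several measured probe sets. This SD shows how far probe sets of 1 gene disagree. It leaves out variation between mice, sorts or hybridisations, which those probe sets share. Of the 37 carriers, 19 differed by less than this SD.

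**Figure D1:**
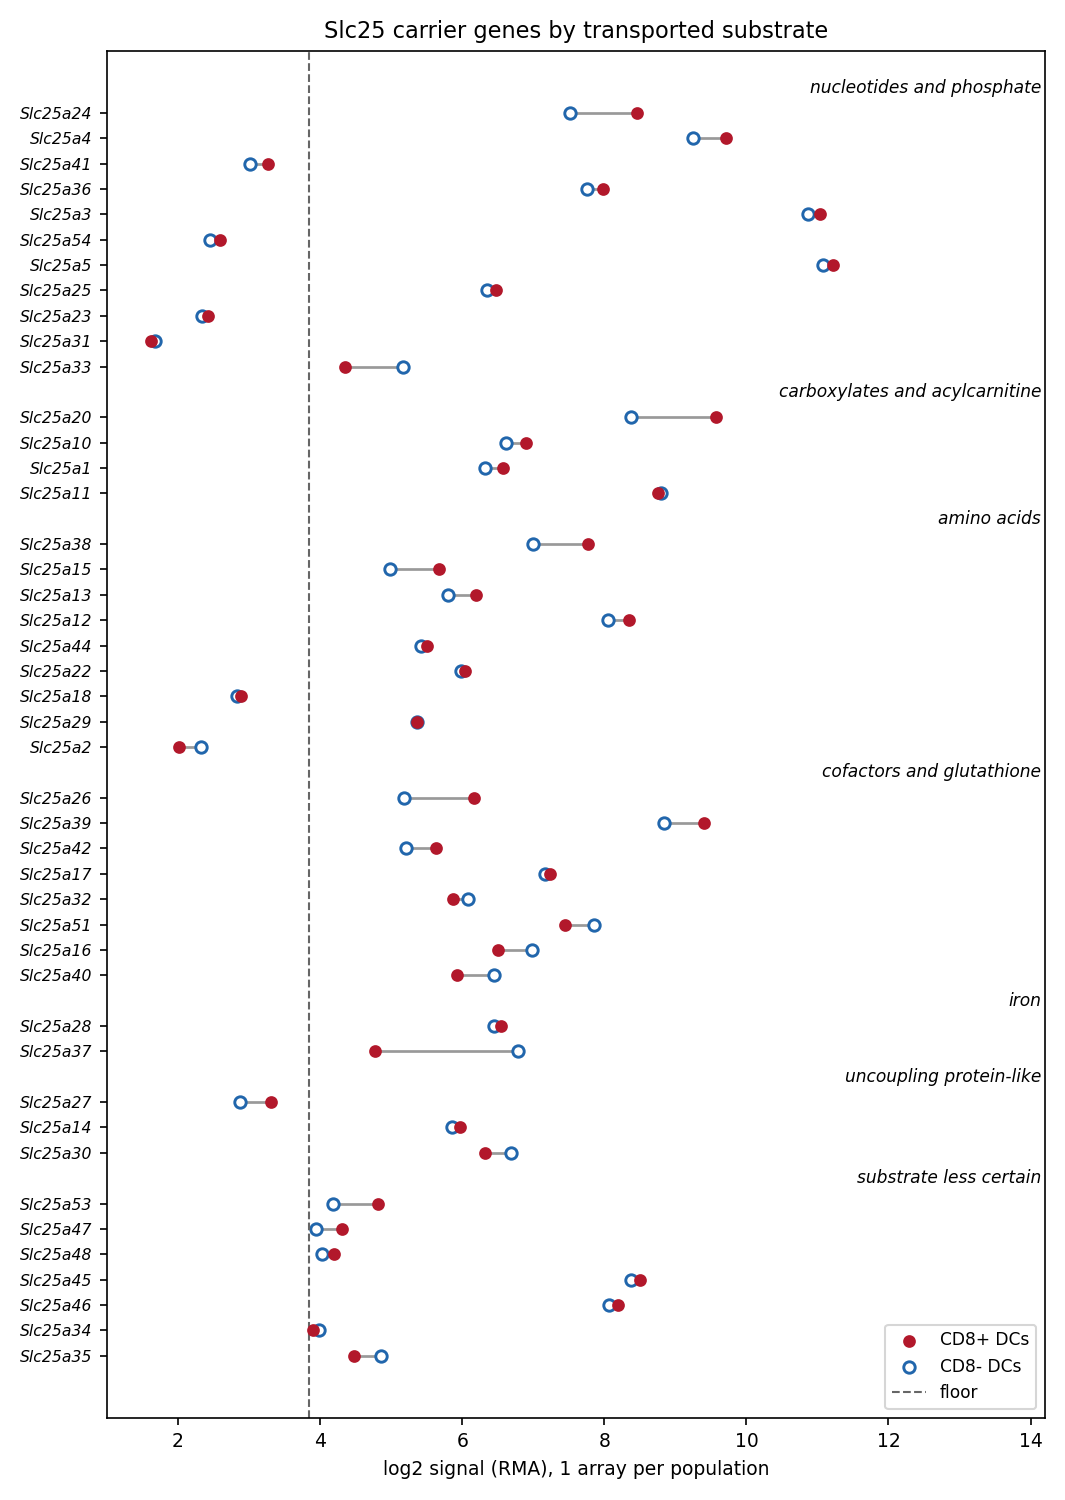
Log2 signal of the 44 Slc25 carriers in CD8+ DCs (filled red) and CD8- DCs (open blue), 1 array each, grouped by transported substrate and ordered within a group by the difference; the dashed line is the floor of 3.85. Slc25a37 has the widest gap, at 4.77 in CD8+ and 6.79 in CD8- DCs, and Slc25a20 the widest in the other direction, at 9.57 and 8.37.

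**Figure D2:**
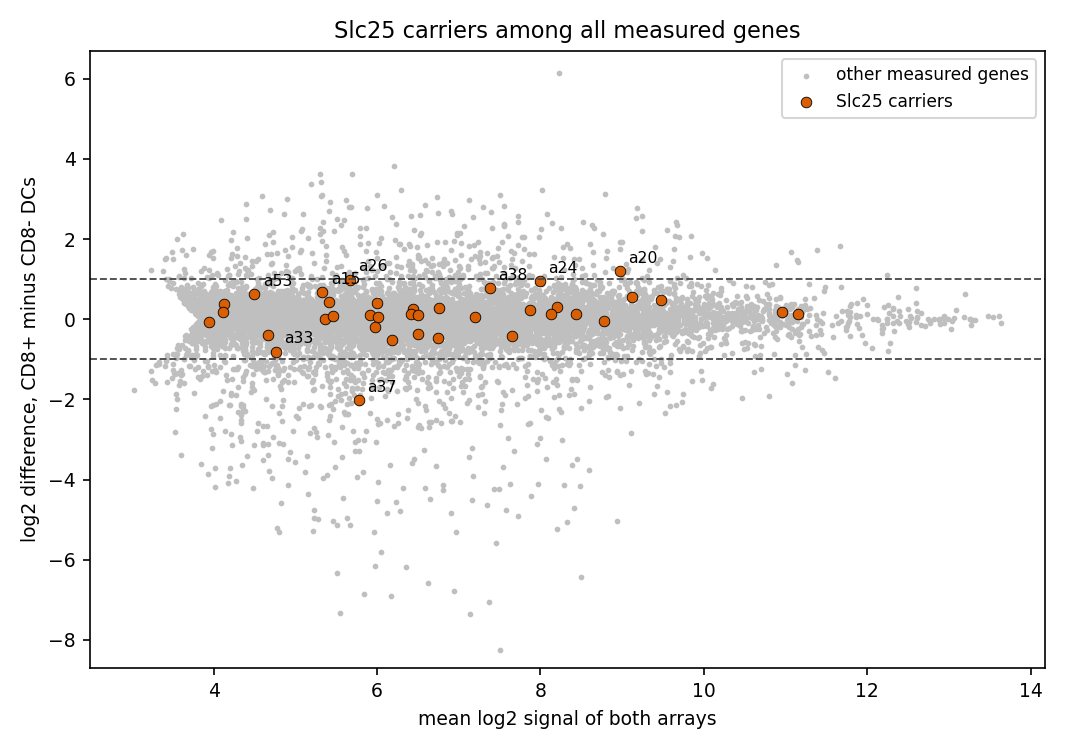
Log2 difference (CD8+ minus CD8- DCs) against the mean log2 signal of both arrays for the 11404 measured genes, with the 37 measured carriers in orange; those past 1.5-fold are marked by the end of their symbol (a20 is Slc25a20), and dashed lines mark 2-fold. Slc25a20 lies above the upper line at 1.20 and Slc25a37 below the lower line at -2.02.

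The promoter windows of the carriers furthest in each direction among measured members with 1 RefSeq window are shown first, since they belong to the genes that the comparison separated. Each line gives the 250 bases before the annotated start, from RefSeq's GRCm38.p6 assembly. The window of Slc25a20 is chr9:108661886-108662135 on the plus strand, and that of Slc25a33, a pyrimidine nucleotide carrier, is chr4:149774268-149774517 on the minus strand.
Slc25a20: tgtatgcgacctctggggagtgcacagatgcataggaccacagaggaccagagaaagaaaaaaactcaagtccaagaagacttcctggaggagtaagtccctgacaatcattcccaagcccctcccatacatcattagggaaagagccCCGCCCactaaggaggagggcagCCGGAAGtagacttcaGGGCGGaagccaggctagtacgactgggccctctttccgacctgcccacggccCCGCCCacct
Slc25a33: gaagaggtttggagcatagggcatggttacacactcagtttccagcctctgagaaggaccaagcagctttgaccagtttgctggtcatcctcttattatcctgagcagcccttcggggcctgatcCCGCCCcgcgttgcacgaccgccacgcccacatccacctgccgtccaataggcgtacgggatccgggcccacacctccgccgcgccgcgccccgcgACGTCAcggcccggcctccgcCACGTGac
Capitals mark every match, on either strand, to 8 short motifs: the Sp/KLF box with the letters GGGCGG, the ETS/GABP site with the letters CCGGAAG, the core of the NRF1 site with the letters GCATGCG, the E-box with the letters CACGTG, the nuclear receptor half-site with the letters AGGTCA, the GATA site with the letters AGATAA, the CRE core with the letters TGACGT, and the TATA box with the letters TATAAA. The marked matches do not overlap. In the Slc25a20 window there were 3 Sp/KLF boxes, beginning 102, 63 and 10 bases before the start, and 1 ETS/GABP site beginning 79 bases before it. The Slc25a33 window held 1 Sp/KLF box, beginning 125 bases before the start, a CRE core at 29 bases and an E-box at 8 bases. These matches describe letters, not binding.

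Of the 37 measured carriers, 30 had at least 1 promoter window, 38 windows in all. An Sp/KLF box was in 76.3% of them, against 56.0% of 11743 windows of measured genes and 32.7% of all 32851 windows. The E-box was in 18.4% of carrier windows, against 8.35% and 6.02%. For the ETS/GABP site the shares were 13.2%, 13.4% and 6.91%, for the CRE core 10.5%, 9.74% and 6.47%, for the nuclear receptor half-site 10.5%, 11.2% and 14.0%, and for the GATA site 5.26%, 5.89% and 9.99%. Neither the NRF1 core nor the TATA box occurred in a carrier window, while they were in 5.19% and 6.29% of the windows of measured genes and in 3.02% and 12.4% of all windows. Carrier windows had a median GC content of 58.2%, against 59.6% in the windows of measured genes and 52.4% in all. Among the 6 carriers past 1.5-fold with a window, Slc25a20 and Slc25a38 held the ETS/GABP site. All but Slc25a38 held an Sp/KLF box.

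Carriers of carboxylates and fatty acyl groups included the largest excess in CD8+ DCs. Slc25a20 was at 9.57 on the CD8+ array and 8.37 on the CD8- array (log2 signal), a difference of 1.20 or 2.30-fold. Both of its probe sets gave nearly the same value, 1.20 and 1.22, and the difference stood at the 97.4th percentile of all measured genes. The enzymes on either side of this carrier did not differ as much. Cpt1a, which makes acylcarnitine at the outer membrane, was 7.42 in CD8+ and 7.40 in CD8- DCs, and Cpt2, which turns acylcarnitine back to acyl-CoA in the matrix, was 6.65 and 6.18. On the brightest probe set, none of the 9 measured genes of the acylcarnitine list, which spans these transferases and β-oxidation, reached 1.5-fold. Of all measured genes, 8.49% were past 1.5-fold higher in CD8+ DCs and 11.5% lower. The median difference of the 9 genes was 0.07. The 3 measured probe sets of the transferase gene Crat ranged from 0.08 to 0.85, the upper of them past 1.5-fold. Of the other carriers in the group, the citrate carrier Slc25a1 was 6.57 in CD8+ and 6.32 in CD8- DCs. The dicarboxylate carrier Slc25a10 was 6.89 and 6.62. The oxoglutarate carrier Slc25a11 was 8.76 and 8.80. These differences were all within 1.5-fold.

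The iron carriers differed from each other in their subset difference. Slc25a37 was 4.77 in CD8+ DCs and 6.79 in CD8- DCs, 4.05-fold lower in CD8+ DCs, at the 2.07th percentile of all measured genes. It was measured by 1 single-gene probe set, and a further probe set that it shares with Gm16867 lay below the floor, at 2.66 on both arrays. Its close relative Slc25a28, mitoferrin 2, was nearly equal, at 6.55 in CD8+ and 6.45 in CD8- DCs.

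Tfrc, the transferrin receptor through which cells take up iron, also differed about 4-fold in the direction of Slc25a37. It was 6.30 in CD8+ DCs and 8.34 in CD8- DCs, 4.10-fold lower in CD8+ DCs, and its 6 measured probe sets lay between -2.33 and -1.49. The ferritin heavy chain gene Fth1, which stores iron, was 11.85 in CD8+ and 12.66 in CD8- DCs, and Alas1, the first enzyme of heme synthesis in non-erythroid cells, was 6.43 and 7.07. Hmox1, which breaks heme down, differed the other way, at 6.80 in CD8+ and 5.65 in CD8- DCs, 2.22-fold higher in CD8+ DCs. Slc11a2, which moves iron out of endosomes, was 6.52 and 5.86. Fech, the last enzyme of heme synthesis, was 7.04 and 6.57. In all, 13 iron, heme and iron-sulfur genes were measured, with 1 past 2-fold on each side (7.69% each, against 3.55% of all measured genes in favour of CD8+ DCs and 5.97% in favour of CD8- DCs) and a median of 0.01.

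Slc25a37 and the heme genes are also abundant in developing red cells, which the spleen can hold. How completely the sort for CD11c left such cells out was not tested. Of 4 erythroid marker genes on the array, Klf1 alone reached the floor, and only in CD8+ DCs. Hba-a1 was 2.56 in CD8+ and 2.40 in CD8- DCs, and Alas2, the erythroid form of the first heme enzyme, 2.76 and 2.66. Epb42 was 3.42 and 2.94. These 3 genes were below the floor on both arrays, and the summed signal of all 4, 5.28 for CD8+ and 4.89 for CD8- DCs on the log2 scale, is therefore mostly background. Of the 5 markers of red pulp macrophages and monocytes on the array, 3 were above the floor in each population, with a summed signal of 6.75 for CD8+ and 8.52 for CD8- DCs. Of these 3, on the brightest probe set, only Adgre1, which encodes F4/80, was lower in CD8+ DCs. Adgre1 was 4.63 in CD8+ and 8.22 in CD8- DCs, and it made up most of the summed signal in CD8- DCs. On that measure Vcam1 (5.52 in CD8+ and 4.66 in CD8- DCs) and Fcgr1 (4.36 and 4.26) were higher in CD8+ DCs. The 3 measured probe sets of Vcam1 lay between 0.42 and 2.49. Those of Fcgr1 disagreed, at -1.65 and 0.10, so its direction was not settled. The red pulp factor gene Spic (3.40 in CD8+ and 3.74 in CD8- DCs) and Cd163 (2.60 and 3.57) were below the floor on both arrays. The part of such cells in the Slc25a37 difference was not tested.

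Carriers of nucleotides and phosphate supply oxidative phosphorylation. Of 11 on the array, 7 were measured, with a median of 0.17. On the brightest probe set 6 of the 7 (85.7%) were higher in CD8+ DCs, against 52.6% of all measured genes. The 6 include Slc25a3 and Slc25a36, whose probe sets disagree in direction. Slc25a24, a calcium-regulated carrier that exchanges ATP-magnesium for phosphate, was 8.46 in CD8+ and 7.52 in CD8- DCs, 1.92-fold higher in CD8+ DCs. Its probe sets differed by 0.94 and 0.64. The related Slc25a25 was 6.47 and 6.35.

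The ADP/ATP carriers and the phosphate carrier, which together feed the ATP synthase, were within 1.5-fold. Slc25a4 was 9.72 in CD8+ and 9.24 in CD8- DCs, and its 3 measured probe sets gave 0.40 to 0.47. Slc25a5 was 11.21 and 11.08, and all 8 of its probe sets were higher in CD8+ DCs, by 0.09 to 0.50. Several of these 8 have names ending in _x_at, which marks probes that can bind other transcripts. The phosphate carrier Slc25a3 was 11.04 and 10.87, but its dimmer probe set differed by -0.52. Of the 15 ATP synthase subunit genes, 12 (80%) were higher in CD8+ DCs, against 52.6% of all measured genes. Their median was 0.10. None reached 1.5-fold, against 8.49% of all measured genes higher and 11.5% lower in CD8+ DCs. The median absolute difference of the 15 genes was 0.12, below the 0.30 spread between probe sets of 1 gene. Slc25a31, the ADP/ATP carrier of the testis, was below the floor, as were Slc25a23, Slc25a41 and Slc25a54.

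Of the pyrimidine nucleotide carriers, Slc25a33 passed 1.5-fold and Slc25a36 did not. Slc25a33 was 4.35 in CD8+ DCs and 5.16 in CD8- DCs, 1.75-fold lower in CD8+ DCs, on 1 probe set. Slc25a36 was 7.99 in CD8+ and 7.76 in CD8- DCs, and its 3 probe sets ranged from -0.16 to 0.38, so its direction was not settled between them.

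Of the 7 measured amino acid carriers, 6 were higher in CD8+ DCs on the brightest probe set and 1 was equal, where 52.6% of all measured genes were higher. Their median difference was 0.29. Slc25a38, which brings glycine into the matrix for heme synthesis, was 7.77 in CD8+ and 7.00 in CD8- DCs, 1.71-fold higher in CD8+ DCs. Slc25a15, the ornithine-citrulline carrier, was 5.67 in CD8+ and 4.99 in CD8- DCs, 1.60-fold higher in CD8+ DCs. Among enzymes near it, Odc1, which turns ornithine into putrescine, was 8.87 in CD8+ and 8.18 in CD8- DCs, and Asl, the argininosuccinate lyase gene, was 7.67 and 6.91. Oat (9.99 in CD8+ and 10.10 in CD8- DCs), Glud1 (9.95 and 10.21) and Bckdha (6.64 and 7.16) were lower in CD8+ DCs. Of the 9 measured ornithine, glutamate and branched-chain amino acid enzymes, 5 (55.6%) were higher in CD8+ DCs, against 52.6% of all measured genes. The median of the 9 enzymes was 0.07, and it lay between -0.11 (floor at the 75th percentile) and 0.07 under the alternatives. The arginase genes Arg1 and Arg2 were below the floor on both arrays.

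The aspartate-glutamate carriers are the mitochondrial step of the malate-aspartate shuttle, which moves reducing equivalents into the matrix. Slc25a13 was 6.19 in CD8+ and 5.80 in CD8- DCs, and Slc25a12 was 8.35 and 8.05, with 3 probe sets from -0.24 to 0.29. Both carriers stayed within 1.5-fold. Got1, the cytosolic aspartate aminotransferase, was 8.23 in CD8+ and 7.19 in CD8- DCs, 2.04-fold higher in CD8+ DCs, and its mitochondrial counterpart Got2 was 9.87 and 9.16. Mdh2, the matrix malate dehydrogenase, was 10.86 in CD8+ and 12.18 in CD8- DCs, 2.50-fold lower in CD8+ DCs, with probe sets at -1.52 and -1.32. The cytosolic Mdh1 was 10.69 and 10.35. Among the 10 measured genes of citrate export and the shuttle, Got1 was the 1 past 2-fold in favour of CD8+ DCs (10.0%, against 3.55% of all measured genes) and Mdh2 the 1 in favour of CD8- DCs (10.0%, against 5.97%). With the arrays centred on their medians the Got1 difference was 0.998, just under 2-fold.

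The glutamate carrier Slc25a22 (6.04 in CD8+ and 5.98 in CD8- DCs) and the branched-chain amino acid carrier Slc25a44 (5.50 and 5.42) were close to equal. Slc25a29, a carrier of basic amino acids, had the same value of 5.37 on both arrays, as did 7.30% of all probe sets in the table. Of its 4 measured probe sets 2 were lower in CD8+ DCs and 1 was higher, over a range of -0.27 to 0.19. Slc25a2 and Slc25a18 were below the floor.

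Carriers of cofactors and glutathione were split, with 4 of 8 higher in CD8+ DCs and 4 lower (50% each). This was near the 52.6% and 44.8% of all measured genes. The median of the 8 carriers was -0.07. Slc25a26, which imports S-adenosylmethionine, the methyl donor, was 6.16 in CD8+ and 5.18 in CD8- DCs, 1.98-fold higher in CD8+ DCs. Its other probe set gave 0.58, just under 1.5-fold. The glutathione importer Slc25a39 was 9.40 in CD8+ and 8.84 in CD8- DCs, 1.47-fold higher, and its 5 probe sets were all higher in CD8+ DCs, by 0.20 to 0.64. Its paralogue Slc25a40 was 5.92 in CD8+ and 6.45 in CD8- DCs, 1.44-fold lower in CD8+ DCs, on 1 probe set. Gclc, the catalytic subunit of the rate-limiting enzyme of glutathione synthesis, was 7.34 in CD8+ and 6.57 in CD8- DCs, 1.70-fold higher in CD8+ DCs.

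Slc25a51, which imports NAD+, was 7.45 in CD8+ and 7.86 in CD8- DCs, and all 3 of its probe sets were lower in CD8+ DCs, by -0.84 to -0.41. Slc25a16 was 6.51 and 6.98. Slc25a32, the folate and FAD carrier, was 5.87 in CD8+ and 6.08 in CD8- DCs, within 1.5-fold. On the brightest probe set, the 5 folate enzyme genes Mthfd1 (7.24 and 7.63), Mthfd1l (6.48 and 6.94), Mthfd2 (8.59 and 8.52), Shmt1 (6.26 and 6.07) and Shmt2 (6.82 and 6.68) were also within 1.5-fold. Of these 5, 3 were higher in CD8+ DCs, where 52.6% of all measured genes were higher. The 4 measured probe sets of Shmt1 ranged from -0.96 to 0.19, so its direction was not settled. The coenzyme A carrier Slc25a42 was 5.63 and 5.20, with Coasy, which makes coenzyme A, at 6.44 and 5.92. Peroxisomal Slc25a17 was 7.23 and 7.17. Among the 16 measured thiamine, folate, S-adenosylmethionine, coenzyme A and glutathione enzymes none reached 2-fold, and the median was 0.05. Of all measured genes, 3.55% were past 2-fold higher in CD8+ DCs and 5.97% lower, so few were to be looked for among 16.

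Members related to the uncoupling proteins or without a settled substrate differed little. Slc25a30 was 6.33 in CD8+ and 6.68 in CD8- DCs, with all 4 measured probe sets lower in CD8+ DCs by -0.45 to -0.36. Slc25a14 was 5.97 and 5.86, and Slc25a27 was below the floor. Slc25a45 (8.50 in CD8+ and 8.37 in CD8- DCs) and Slc25a46 (8.19 and 8.07) were well above the floor and nearly equal. Slc25a53 was 4.82 in CD8+ and 4.18 in CD8- DCs, 1.55-fold higher in CD8+ DCs, but its other probe set gave -0.77, so no direction can be given for this gene. Slc25a35 was 4.47 and 4.86. Slc25a34 (3.91 and 3.99), Slc25a47 (4.31 and 3.94) and Slc25a48 (4.20 and 4.02) lay close to the floor, where background compresses differences.

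**Figure D3:**
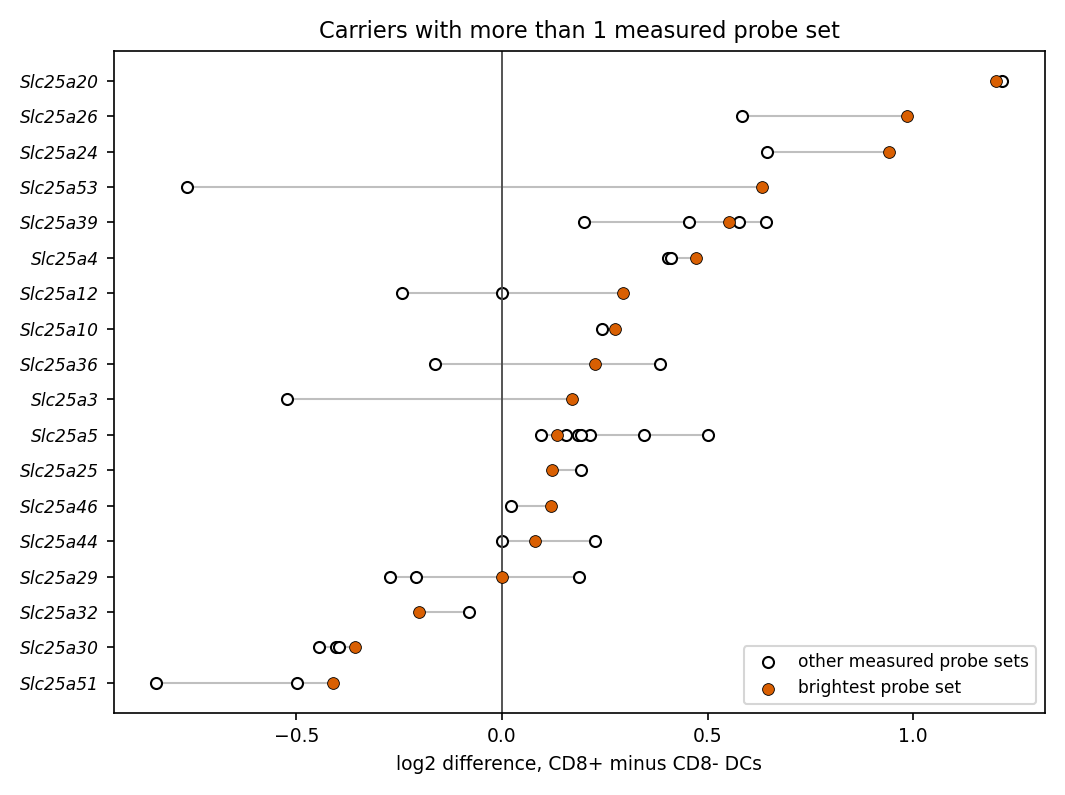
Log2 difference (CD8+ minus CD8- DCs) of each measured probe set for the 18 carriers with more than 1; orange points are the brightest probe set of a gene and open points the others. Both Slc25a20 points lie at about 1.20, whereas the Slc25a53 points lie at 0.63 and -0.77.

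Of these 18 carriers, 12 had all measured probe sets in the same direction. The other 6 were Slc25a3, Slc25a12, Slc25a29, Slc25a36, Slc25a44 and Slc25a53. Among the carriers past 1.5-fold, Slc25a20, Slc25a24 and Slc25a26 were backed by a second probe set of the same sign. Slc25a15, Slc25a33, Slc25a37 and Slc25a38 rested on 1 measured probe set each.

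Beside the carriers, 10 lists of partner genes held 114 measured genes. Of these, 3 exceeded 2-fold in favour of CD8+ DCs (2.63%, against 3.55% of all measured genes) and 2 in favour of CD8- DCs (1.75%, against 5.97%). Their median difference was 0.07. The member furthest in favour of CD8+ DCs was Slc8b1, the sodium-calcium exchanger of the inner mitochondrial membrane, at 9.93 in CD8+ and 8.01 in CD8- DCs, 3.77-fold higher on 1 probe set. Among the other 14 measured transporters and channels of mitochondrial membranes, none reached 2-fold. Slc8b1 was thus 1 of 15 (6.67%) in favour of CD8+ DCs, against 3.55% of all measured genes. None was past 2-fold in favour of CD8- DCs, against 5.97%. The sideroflexin gene Sfxn1, a serine transporter, was 7.98 in CD8+ and 7.38 in CD8- DCs, 1.51-fold higher in CD8+ DCs. The pyruvate carrier subunit Mpc1 was 8.41 and 8.81. Mtch2, a divergent member of the carrier family in the outer membrane, was 8.85 in CD8+ and 8.46 in CD8- DCs. Its 4 measured probe sets ranged from -0.18 to 0.39, so its direction was not settled.

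**Figure D4:**
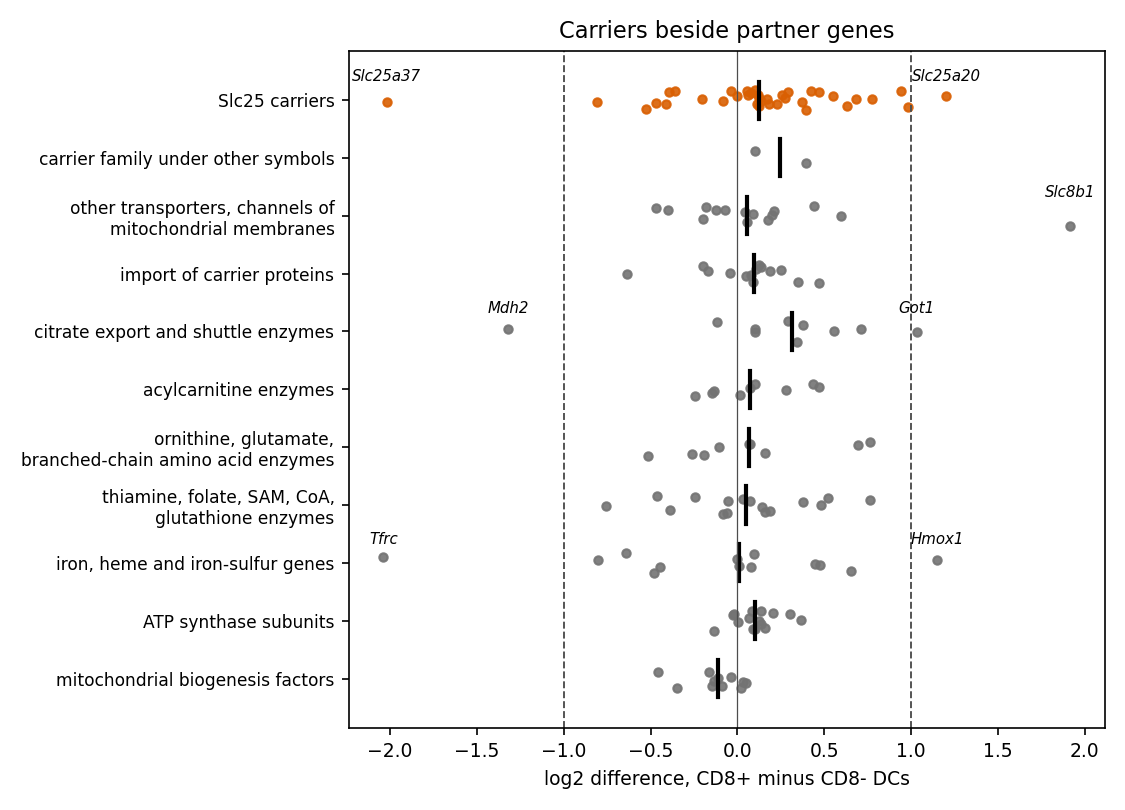
Log2 difference (CD8+ minus CD8- DCs) of the 37 measured carriers (orange) and of the measured genes of 10 partner lists (grey); black bars are medians, dashed lines mark 2-fold, genes past it are named, and points are spread vertically for legibility. Slc25a37 and Tfrc lie furthest to the left, at -2.02 and -2.04, and Slc8b1 furthest to the right, at 1.92.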

How the data were processed

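Total RNA of 2 sorted DC populations was hybridised to Affymetrix arrays, 1 each. The authors deposited log2 signal per probe set and, per the submitters' processing notes, used RMA. This method includes background correction, quantile normalisation between arrays and a summary over probes, and so hides any change common to most genes. The RMA version is not given in the sources used here. No detection calls were used.

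Of 45101 probe sets, 34958 had 1 gene symbol in the platform annotation, and symbols were updated by gene identifier through RefSeq's GRCm38.p6 table (34754 matched). Differences were computed in statsmodels 0.14.6, pandas 2.3.3 and numpy 2.4.6 under Python 3.11.15, and genes described by 2-fold and 1.5-fold thresholds. With 1 array per population, precision is limited by the number of arrays. A single simulated pair of arrays checked the calculation, with differences planted in bright genes. All 100 genes planted at 2 on the log2 scale and 93 of 100 planted at 1.5 were recovered past 2-fold. Of 11181 unchanged genes, 2 passed 2-fold. Noise was added per probe set only, so error between sorts or arrays was not simulated. Every measured carrier is given with both values, and of each partner list the genes past 2-fold. Members, gene lists and promoter motifs were chosen with earlier results of these data known. Alternatives were array centring, a lowess trend (span 0.3), no filter or a floor at the 75th percentile, the mean of all probe sets, leaving out _x_at and _s_at probe sets, setting values below the floor to it, and thresholds of 1.5-fold and 4-fold. Protein sequences were not used here.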

Additional observations from a re-analysis of the deposited data

How the results depend on the processing

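No paired analysis was possible because each population had 1 array. Slc25a20 and Slc25a37 were the carriers past 2-fold (1 higher and 1 lower in CD8+ DCs) in every alternative at that threshold. At 1.5-fold the counts were 6 higher and 2 lower, and at 4-fold 0 higher and 1 lower. Recomputed under the same alternatives, a step chosen after seeing the data, the 1.5-fold counts were between 4 and 6 higher and between 1 and 2 lower, the 1 with the floor at the 75th percentile, which leaves out Slc25a33. The 4-fold count lower was 0 with the lowess trend, where Slc25a37 was at -1.998, and 1 otherwise. The carriers' median difference stayed between 0.09 and 0.13 under the alternatives. Centring the arrays shifted every difference by the same small amount and left 2 partner genes higher, without Got1. Averaging all probe sets turned Slc25a53 to -0.067 and Slc25a3 to -0.18, because their dimmer probe sets disagree with the brightest. Without _s_at probe sets Slc25a26 was at 0.58. Of 246 recomputed carrier differences, 243 moved by less than the 0.30 spread between probe sets. Many of them could not move, so this count does not measure robustness. The changed filters and floors left the difference of a carrier as it was. Carriers with 1 probe set had no other to average or to replace it. Signal near the floor limits what can be seen for dim carriers.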

Other observations

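Of 11 measured mitochondrial biogenesis factors, 8 (72.7%) were lower in CD8+ DCs, against 44.8% of all measured genes, and 3 were higher. Their median was -0.11. None passed 1.5-fold, against 8.49% of all measured genes higher and 11.5% lower in CD8+ DCs. All differences but those of Tfam and Nrf1 were smaller than the 0.30 spread between probe sets of 1 gene. Tfam, which packages and transcribes mitochondrial DNA, was 6.79 in CD8+ and 7.24 in CD8- DCs, and the nuclear respiratory factor gene Nrf1 was 6.11 and 6.45. Of the 14 measured genes for the import of carrier proteins, 10 (71.4%) were higher in CD8+ DCs, against 52.6% of all measured genes. Their median was 0.10. Tomm70a, the receptor that carrier precursors use at the outer membrane, was 9.23 in CD8+ and 8.76 in CD8- DCs. Timm8a1, a chaperone of the intermembrane space, was 6.29 in CD8+ and 6.92 in CD8- DCs, 1.55-fold lower in CD8+ DCs. Pdha1, the α subunit of pyruvate dehydrogenase, differed by -0.75 on the log2 scale, 1.69-fold lower in CD8+ DCs, and Cs, citrate synthase, was 10.20 and 9.82.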
